A study of Homo sapiens
Mus musculus and Mus musculus and Homo sapiens with 3 samples.

Results

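Axon guidance ligands, receptors and adhesion molecules were followed through motor neuron differentiation of human and mouse pluripotent stem cells. The 48 genes were taken as a fixed list: 20 ligands, 25 receptors and 3 adhesion molecules, matched by symbol with mouse symbols in upper case. All 48 were among the 15472 gene symbols found in every count table, and all 48 passed the filter on low counts. No level or test entered the rule that lists them, though the list was drawn up with earlier results of these data known. The cells were grown as embryoid bodies, floating aggregates, carried a lentiviral GFP reporter with a barcode driven by the CAGGS promoter, and were sorted for GFP before droplet-based 3' single-cell RNA sequencing. Human replicate 1 was the induced pluripotent line NCRM1 and human replicate 2 was RUES1, so their spread holds a difference between lines. Mouse replicates 1 and 2 came from C57BL/6 embryonic stem cells. Human and mouse replicate 1 were parts of 1 mixed library that was deposited apart by species, and each replicate 2 was a library of its own. Sampling was every 48 h in human and every 24 h in mouse, and the files give no day for a cell. Every library pooled several days, so a difference between classes or species may hold a difference in day, which cannot be told apart from it.

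Growing axons are steered by cues that cells secrete or carry on their surface, and the receptor set of the growth cone decides whether a cue attracts or repels. SLIT proteins act through ROBO receptors, netrins through DCC and the UNC5 family, and repulsive guidance molecules through neogenin. Class 3 semaphorins act through neuropilins and plexins, ephrins through EPH receptors, and the chemokine CXCL12 through CXCR4. Spinal motor axons leave the ventral neural tube, and floor plate cells at the ventral midline are a textbook source of netrin and SLIT cues. Adhesion molecules of the immunoglobulin family, such as L1CAM, NCAM1 and CNTN2, are carried along axon shafts and in axon bundles.

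Cells were classed by marker transcripts after each cell had been thinned at random to 5000 UMIs (unique molecular identifiers, counts of captured transcript molecules). Motor neurons held at least 3 UMIs of STMN2, a neuronal stathmin, and at least 1 UMI of ISL1 or MNX1, transcription factors of motor neurons. STMN2-positive cells without ISL1 or MNX1 were called other neurons. Progenitors held SOX2 without reaching the neuronal or COL1A2 threshold, and COL1A2-positive cells held at least 2 UMIs of that collagen. In human replicates 1 and 2 these gates took 1056 and 862 progenitors, 166 and 294 motor neurons, 276 and 132 other neurons and 110 and 184 COL1A2-positive cells. In mouse replicates 1 and 2 they took 811 and 923 progenitors, 77 and 249 motor neurons, 117 and 206 other neurons, and 0 and 45 COL1A2-positive cells. Cells that met no gate were left unclassed, 25.4% and 11.4% of the thinned cells in human and 44.0% and 44.5% in mouse. Gating without thinning took 1349 and 963 progenitors in human and 1331 and 1683 in mouse. The species parts of the mixed library shared 60 cell barcodes, which were left out, and the other pairs of parts shared at most 2. Total depth ran from 28577630 to 83969715 UMIs per library part. Levels below are in CPM, the UMIs of a gene scaled to the total UMIs of the summed cells of a class, given for replicate 1 and then replicate 2 of a species, and each comparison rests on n = 2 library parts per species. The labels do not state that replicates came from separate cultures, so p-values measure only the spread between these library parts. The fit took classes of the same library part as separate sums, so that spread was not estimated from independent libraries alone.

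The class names were checked against marker lists. The motor neuron list (8 genes, among them LHX3, ISL2, SLC18A3 and PRPH) summed to 528 and 573 CPM in motor neurons of human and to 739 and 1399 CPM in those of mouse, against 14.7 to 36.9 CPM in progenitors. Human other neurons held nearly the same sum, 526 and 555 CPM, so by this list the human class was not distinct from motor neurons. Mouse other neurons held 382 and 701 CPM of it, and 624 and 727 CPM of 15 spinal interneuron markers, against 61 and 178 CPM in human other neurons. COL1A2-positive cells held 1432 and 3099 CPM of 7 mesenchyme markers in human and 6880 CPM in mouse replicate 2. They also held 789, 1248 and 1747 CPM of 9 neural progenitor markers, against 2183 and 3749 CPM in human progenitors and 1770 CPM in progenitors of mouse replicate 2. In mouse replicate 2 they held 382 CPM of 5 epithelium or endoderm markers, against 76.4 CPM in progenitors. TUBB3, a neuronal tubulin, was listed at 0 in every class of human replicate 1 and stood at 285 CPM in motor neurons of human replicate 2, against 3411 and 3837 CPM in mouse. Why TUBB3 was low in the human files was not tested.

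Guidance genes were on the whole higher in motor neurons than in progenitors in both species. Their summed level was 668 and 871 CPM in human progenitors and 2332 and 2986 CPM in human motor neurons. In mouse it was 580 and 617 CPM in progenitors and 2089 and 4072 CPM in motor neurons. In human motor neurons 15 of 48 genes rose and 2 fell against progenitors, by edgeR's quasi-likelihood test with Benjamini-Hochberg adjustment, while 12.6% of all 11893 genes tested passed (5.9% higher and 6.7% lower). In mouse 18 of 48 rose and 2 fell, while 19.8% of all genes passed (10.3% higher and 9.48% lower). The median log2 fold change of the 48 genes was 0.99 in human and 0.88 in mouse, against -0.07 and -0.05 over all genes. By role, 7 of 25 receptors rose in human and 9 in mouse, and none fell. Of 20 ligands 5 rose and 2 fell in human, and 6 rose and 2 fell in mouse. All 3 adhesion molecules rose in each species.

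Of the genes that passed, 13 did so in both species and moved the same way: SLIT2, SLIT3, DCC, UNC5C, UNC5D, SEMA6A, SEMA6D, NRP1, PLXNA4, CNTN2, NCAM1 and L1CAM rose and NTN1 fell. They are 13 of 17 human and 13 of 20 mouse calls. The same overlap was not counted over all genes, so it does not set guidance genes apart from others. With the library part as a replicate block, 29 genes passed in human (24 higher, 5 lower, 42.1% of all genes) and 31 in mouse (25 higher, 6 lower, 51% of all genes). P-values of the block fit measure how far the changes within library parts differ, not the spread of levels between parts. Fewer guidance genes passed in a species with 1 of its own library parts left out. Without human replicate 1, SLIT3 and CNTN2 were the 2 genes that passed in human, and without human replicate 2 there were 0. In mouse 13 passed without replicate 1 and 8 without replicate 2, the latter being SLIT2, SEMA5B, SEMA6A, SEMA6D, NRP1, CNTN2, NCAM1 and L1CAM. Counting direction alone, 19 of 48 genes were higher in motor neurons than in progenitors within each of the 4 library parts, against 28.3% of all genes, and 5 were lower in each, against 22.5%. The share that went the same way in all 4 parts was 50.0% of the 48 genes and 50.8% of all genes.

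**Figure D1:**
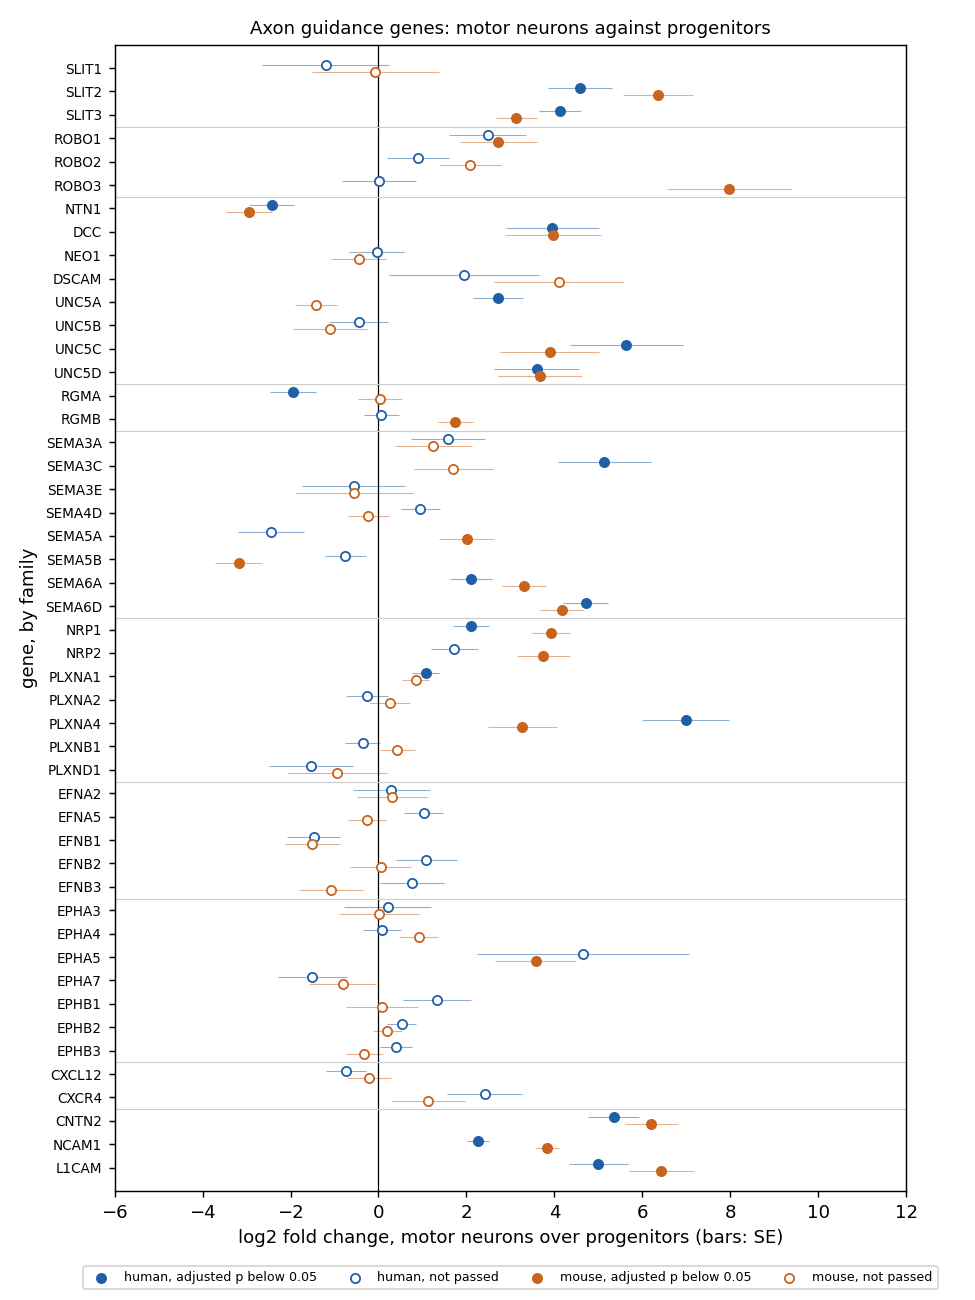
Log2 fold change of each gene between motor neurons and progenitors (x axis; bars are standard errors of the fit), by gene and family (y axis), in human (blue) and mouse (orange). Filled points passed an adjusted p of 0.05; most filled points lie to the right of 0, with NTN1 to the left in both species, RGMA in human and SEMA5B in mouse, and the points of ROBO3 in mouse and EPHA5 in human rest on progenitors at 0 UMIs, so their size is no bound.

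SLIT2 and SLIT3, secreted ligands of the ROBO receptors, rose in motor neurons of both species. SLIT2 (chr4:20251905-20620561 on GRCh38 and chr5:47983138-48307733 on mm10) stood at 5.81 and 11.8 CPM in human progenitors and 139 and 328 CPM in human motor neurons. In mouse it went from 2.76 and 10.6 CPM to 324 and 977 CPM, so no progenitor value of either species came near a motor neuron value. The log2 fold change was 4.58 ± 0.74 (SE) in human (adjusted p = 0.00312) and 6.35 ± 0.80 in mouse (adjusted p = 6.75e-04). At 5000 UMIs per cell a SLIT2 UMI was seen in 47.6% and 61.2% of human motor neurons and in 55.8% and 94.0% of mouse motor neurons. In progenitors it was seen in 2.10% to 6.38% of cells over the 4 library parts, and in COL1A2-positive cells in 3.26% to 13.3%.

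SLIT3 went from 19.5 and 14.7 CPM in human progenitors to 315 and 377 CPM in motor neurons, and from 6.16 and 8.60 CPM to 67.1 and 86.6 CPM in mouse. The change was 4.13 ± 0.49 in human (adjusted p = 9.84e-04) and 3.13 ± 0.47 in mouse (adjusted p = 0.00153). Human motor neurons held 4.65-fold more SLIT3 than mouse motor neurons (log2 fold change 2.22 ± 0.45, adjusted p = 0.00593), and the values of the species did not overlap. Between the species 11 of 48 genes passed in motor neurons (6 higher and 5 lower in human), while 23.8% of all genes did (13.7% higher and 10.2% lower). SLIT1 passed neither class comparison. Its human progenitor values were far apart, 0.377 CPM in replicate 1 and 25.4 CPM in replicate 2, and 3 detected floor plate markers moved with it, at 0.830 and 48.7 CPM. Their part in that difference was not tested.

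Of 3 ROBO receptors, 0 passed between motor neurons and progenitors in human, and 2 rose in mouse. ROBO1, the receptor that carries the SLIT signal in many axons, was at 4.45 and 7.39 CPM in human progenitors and 17.4 and 56.3 CPM in motor neurons. In mouse it was at 1.88 and 9.51 CPM and then 13.2 and 74.4 CPM, and it rose with a log2 fold change of 2.73 ± 0.87 (adjusted p = 0.0489). Within every library part the motor neuron value was above the progenitor value, and with the replicate block the human change of 2.48 ± 0.30 passed as well (adjusted p = 2.30e-05). ROBO2, a close relative, stood at 8.02 and 12.04 CPM in human against 56.7 and 39.6 CPM in mouse motor neurons, and it was 4.62-fold lower in human (log2 fold change -2.21 ± 0.72, adjusted p = 0.0460). ROBO1 and ROBO2 ranked just past the 30 genes set for full description and are given since they complete the family.

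ROBO3, the ROBO receptor known for letting commissural axons reach the midline, differed most plainly in progenitors. It stood at 10.9 and 10.5 CPM in human progenitors (144 and 164 UMIs) and had 0 UMIs in mouse progenitors of either replicate. Against a floor of 3 UMIs over the mouse group the human level was at least 158.6-fold higher (adjusted p = 0.00126). A progenitor cell with a ROBO3 UMI made up 4.07% and 4.29% of cells in human, and the 0 of 811 and 0 of 923 cells in mouse allow a share of up to 0.370% and 0.325%. Human COL1A2-positive cells held ROBO3 at 6.72 and 9.28 CPM. ROBO3 showed a flat level of 10.0 and 14.4 CPM in human motor neurons. In mouse motor neurons 51 UMIs were found, all in replicate 2 (8.53 CPM), so the mouse rise of at least 107.5-fold (adjusted p = 0.00425) rests on that library and had a value of 0.00 without it. Other neurons of mouse held 11.8 and 15.1 CPM, and those of human 12.4 and 69.3 CPM.

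**Figure D2:**
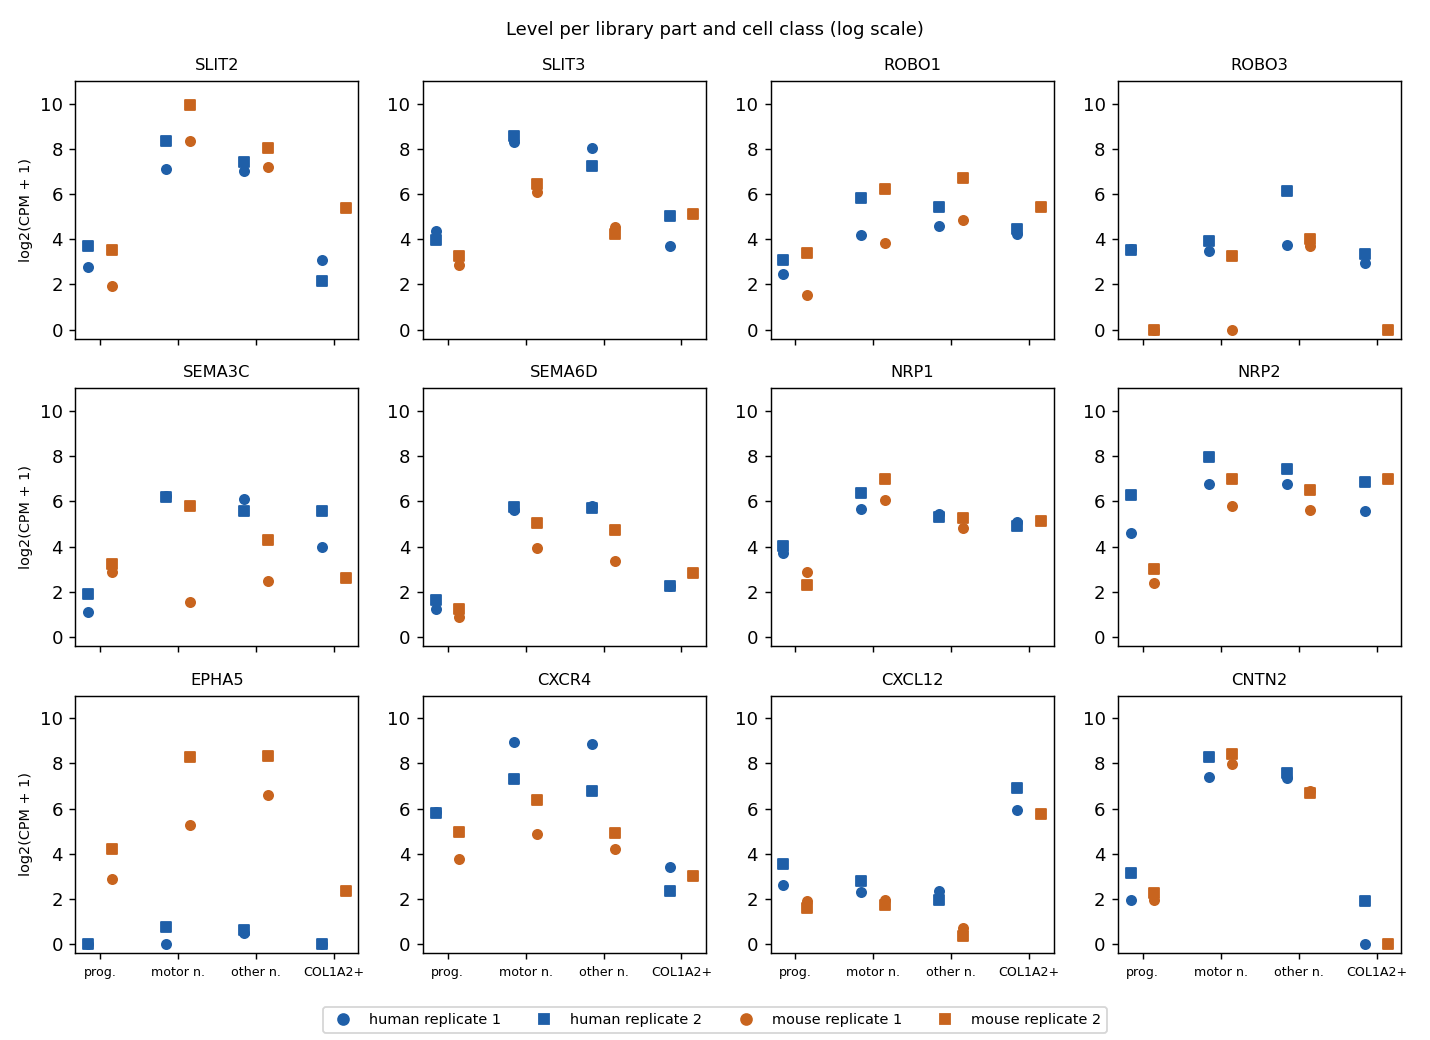
Level of 12 guidance genes as log2 of CPM plus 1 (y axis, log scale) in 4 cell classes (x axis), with 1 point per library part (blue human, orange mouse, circles replicate 1, squares replicate 2; mouse replicate 1 had no COL1A2-positive cells). SLIT2 and CNTN2 are high in neurons of all 4 parts, EPHA5 is near 0 in human, ROBO3 is at 0 in mouse progenitors, and CXCL12 is highest in COL1A2-positive cells.

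In the netrin system the ligand fell and several receptors rose. NTN1, netrin-1 (chr17:9003087-9244000 on GRCh38 and chr11:68209364-68400823 on mm10), was at 10.3 and 29.4 CPM in human progenitors and 2.00 and 5.33 CPM in motor neurons. In mouse it was at 31.0 and 30.7 CPM in progenitors and 5.67 and 4.35 CPM in motor neurons. Motor neuron values lay below progenitor values in both species, with falls of 5.39-fold in human (log2 fold change -2.43 ± 0.50, adjusted p = 0.0105) and 7.69-fold in mouse (-2.94 ± 0.52, adjusted p = 0.00331). The 3 detected floor plate markers summed to 0.830 and 48.7 CPM in progenitors of human, to 11.7 and 10.9 CPM in those of mouse, and 0 to 2.08 CPM in motor neurons. Human replicate 1 had the lowest NTN1 level among the progenitors and floor plate markers near 0. The part of floor plate cells in the NTN1 levels was not tested.

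DCC, the netrin receptor best known for attraction, rose from 0.981 and 2.19 CPM to 9.35 and 45.4 CPM in human, a log2 fold change of 3.96 ± 1.05 (adjusted p = 0.0331). In mouse it went from 0.251 and 0.594 CPM to 0.946 and 14.2 CPM (3.97 ± 1.09, adjusted p = 0.0275). The mouse change came mainly from replicate 2, since replicate 1 held 1 DCC UMI in motor neurons. UNC5C, an UNC5 receptor tied to netrin repulsion, had the same kind of pattern. It was at 0.257 CPM or below in human progenitors and at 0.668 and 19.5 CPM in motor neurons (5.64 ± 1.28, adjusted p = 0.0162), and in mouse it went from 0.251 and 0.559 CPM to 1.89 and 12.2 CPM (3.89 ± 1.13, adjusted p = 0.0348). Replicate 1 held 1 UNC5C UMI in human and 2 in mouse motor neurons, so the size of the change is set by the second libraries.

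UNC5D rose in both species at low levels, to 6.01 and 4.40 CPM from 0.226 and 0.514 CPM in human (3.60 ± 0.97, adjusted p = 0.0351). In mouse it went to 0 and 6.86 CPM from 0.251 and 0.245 CPM (3.68 ± 0.96, adjusted p = 0.0219). Without mouse replicate 2 the mouse value turned to -3.86, so the direction there rests on 1 library.

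UNC5A differed between classes in opposite directions in the species. In human it was scarce in progenitors, at 0.453 and 0.514 CPM, and rose to 4.01 and 3.47 CPM in motor neurons (log2 fold change 2.72 ± 0.58, adjusted p = 0.0142). In mouse it stood at 49.3 and 21.4 CPM in progenitors and 15.1 and 17.2 CPM in motor neurons (-1.42 ± 0.47), lower within both library parts and past the threshold only with the replicate block (-1.16 ± 0.32, adjusted p = 0.00832). The difference between the species in this change was 4.14 ± 0.74 (adjusted p = 0.0607; 0.00246 with the replicate block). Human progenitors held 74.9-fold less UNC5A than mouse progenitors (log2 fold change -6.23 ± 0.58, adjusted p = 1.18e-04), and human motor neurons 4.26-fold less (-2.09 ± 0.53, adjusted p = 0.0186). Of 48 genes, 15 passed between species in progenitors (9 higher and 6 lower in human), while 29.9% of all genes did (18.2% higher and 11.7% lower).

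UNC5B, the UNC5 receptor known from blood vessels, was the reverse. Human progenitors held 10.8 and 6.23 CPM against 1.38 and 1.75 CPM in mouse (log2 fold change 2.45 ± 0.68, adjusted p = 0.0196), and human motor neurons 10.0 and 4.86 CPM against 0 and 1.17 CPM (3.101 ± 0.87, adjusted p = 0.0259). The species did not overlap in either class. NEO1, neogenin, kept levels of 15.1 to 43.9 CPM over progenitors and motor neurons of all library parts, and DSCAM stayed at or below 6.36 CPM there.

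RGMA and RGMB, membrane-anchored ligands of neogenin, moved in different species. RGMA was the highest of its family in human progenitors at 158 and 123 CPM and fell to 52.8 and 30.8 CPM in motor neurons, with no overlap (log2 fold change -1.94 ± 0.52, adjusted p = 0.0345). Mouse RGMA was at 41.1 and 40.4 CPM in progenitors and 34.0 and 65.7 CPM in motor neurons, values that overlapped. The human level in progenitors was 3.43-fold above mouse (1.78 ± 0.51, adjusted p = 0.0234). RGMB rose in mouse, from 10.8 and 14.3 CPM to 34.0 and 66.2 CPM (1.75 ± 0.40, adjusted p = 0.0126), and in human went from 19.5 and 31.9 CPM to 28.7 and 30.3 CPM, within the spread of progenitors. The species differences in change, -1.97 ± 0.72 for RGMA and -1.68 ± 0.56 for RGMB, did not pass (adjusted p = 0.323 and 0.274) and passed with the replicate block (adjusted p = 0.0125 and 0.0127).

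Of 8 semaphorins, 3 rose in human motor neurons, and 3 rose and 1 fell in mouse. SEMA6D, a transmembrane semaphorin, rose in both species from levels of at most 2.12 CPM. It reached 48.8 and 52.8 CPM in human motor neurons (log2 fold change 4.71 ± 0.52, adjusted p = 8.23e-04) and 14.2 and 32.1 CPM in mouse (4.17 ± 0.51, adjusted p = 5.89e-04). SEMA6A, its relative and a plexin-A ligand, went from 15.9 and 26.3 CPM to 97.5 and 102 CPM in human (2.11 ± 0.48, adjusted p = 0.0164). In mouse it went from 6.41 and 6.96 CPM to 50.1 and 109 CPM (3.31 ± 0.50, adjusted p = 0.00168). Progenitor levels of SEMA6A were higher in human (log2 fold change 1.58 ± 0.47, adjusted p = 0.0281), while motor neuron levels of the species overlapped.

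SEMA3C, a secreted semaphorin that binds neuropilins, rose 35.2-fold in human, from 1.13 and 2.70 CPM to 74.1 and 72.7 CPM (5.14 ± 1.05, adjusted p = 0.00963). The human motor neuron values were nearly alike in the 2 lines. In mouse the parts disagreed: SEMA3C went from 6.41 to 1.89 CPM in replicate 1 and from 8.36 to 54.0 CPM in replicate 2, and the change did not pass (1.70 ± 0.90, adjusted p = 0.212). The mouse change of 1.55 ± 0.58 passed with the replicate block (adjusted p = 0.0395), against the direction seen in replicate 1. SEMA3A, the classical repellent of motor and sensory axons, was at 4.15 and 6.23 CPM in human progenitors and 16.7 and 17.6 CPM in motor neurons. That difference passed with the replicate block alone (1.57 ± 0.32, adjusted p = 0.00134).

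The class 5 semaphorins are transmembrane proteins with thrombospondin repeats. SEMA5A rose in mouse motor neurons from 0.880 and 1.99 CPM to 1.89 and 10.5 CPM (2.00 ± 0.62, adjusted p = 0.0430). In human it stood at 3.92 and 5.85 CPM in progenitors and 0.668 and 1.16 CPM in motor neurons, which passed with the replicate block alone (-2.46 ± 0.53, adjusted p = 0.00230). The species difference in change was -4.45 ± 0.97 (adjusted p = 0.0922; 8.32e-04 with the replicate block), and human motor neurons held 6.74-fold less SEMA5A (-2.75 ± 0.77, adjusted p = 0.0263). SEMA5B fell in mouse from 21.0 and 13.6 CPM to 0.946 and 3.01 CPM (-3.18 ± 0.54, adjusted p = 0.00278). Human SEMA5B was at 14.3 and 20.9 CPM in progenitors and 8.02 and 14.8 CPM in motor neurons, which overlapped. Within each of the 4 library parts SEMA5B was lower in motor neurons than in progenitors, so the species shared this direction. Human SEMA5B exceeded mouse in motor neurons by 5.14-fold (2.36 ± 0.54, adjusted p = 0.0109).

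SEMA4D, a plexin-B1 ligand, was at 20.7 and 21.8 CPM in motor neurons of human against 1.89 and 6.86 CPM in those of mouse (log2 fold change 2.18 ± 0.49, adjusted p = 0.00960). SEMA3E, the ligand of plexin-D1, stayed at or below 2.00 CPM in progenitors and motor neurons of every part.

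Neuropilins, the ligand-binding receptors for class 3 semaphorins, were higher in motor neurons than in progenitors within every library part. NRP1 was at 11.9 and 15.2 CPM in human progenitors and 49.4 and 81.1 CPM in motor neurons (log2 fold change 2.10 ± 0.40, adjusted p = 0.00718). In mouse it rose from 6.35 and 3.99 CPM to 66.2 and 124 CPM (3.92 ± 0.43, adjusted p = 4.53e-04). NRP2 went from 4.21 and 7.06 CPM to 54.8 and 127 CPM in mouse (3.75 ± 0.59, adjusted p = 0.00196). In human it went from 23.5 and 76.2 CPM to 107 and 248 CPM, which did not pass across the lines (1.73 ± 0.54, adjusted p = 0.0622) and passed with the replicate block (1.76 ± 0.21, adjusted p = 1.77e-05). Human progenitors held more of both receptors than mouse progenitors, 2.50-fold for NRP1 (1.32 ± 0.40, adjusted p = 0.0284) and 8.13-fold for NRP2 (3.02 ± 0.57, adjusted p = 0.00314). In motor neurons neither passed between species.

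PLXNA4, a signalling plexin that partners with neuropilins, was nearly unseen in human progenitors, with 1 and 2 UMIs. It reached 7.35 and 26.6 CPM in human motor neurons, a ratio of pooled levels of 208 with a 95% counting interval of 69.6 to 1023 (adjusted p = 0.00182). Mouse PLXNA4 went from 1.63 and 0.524 CPM to 6.62 and 18.1 CPM (3.27 ± 0.78, adjusted p = 0.0142). The motor neuron values of the species overlapped, and the 8.84-fold lower human progenitor level (counting interval 2.82 to 44.6, adjusted p = 0.0252) rests on those 3 UMIs. PLXNA1 rose 2.11-fold in human, from 17.1 and 25.9 CPM to 40.1 and 60.5 CPM (1.08 ± 0.30, adjusted p = 0.0414), the smallest of the human rises. In mouse it went from 15.8 and 15.03 CPM to 33.1 and 33.4 CPM and passed with the replicate block alone (0.84 ± 0.20, adjusted p = 0.00333). PLXNA2, PLXNB1 and PLXND1 did not pass in either species and covered 0.167 to 53.9 CPM over progenitors and motor neurons.

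None of the 5 ephrins passed between motor neurons and progenitors in either species. EFNA2 and EFNA5, ephrins anchored by a lipid tail, were lower in human than in mouse progenitors. EFNA2 was at 9.59 and 3.98 CPM against 34.7 and 45.6 CPM (-2.51 ± 0.85, adjusted p = 0.0456), and EFNA5 at 9.36 and 19.2 CPM against 43.9 and 30.3 CPM (-1.49 ± 0.43, adjusted p = 0.0248). Neither overlapped. In human motor neurons EFNA5 stood at 20.7 and 42.4 CPM and EFNA2 at 16.7 and 3.94 CPM. The transmembrane ephrin EFNB1 was lower in motor neurons within each of the 4 library parts, for instance 52.8 against 20.04 CPM in human replicate 1, and passed in both species with the replicate block alone (-1.30 ± 0.25 in human, adjusted p = 0.00110, and -1.34 ± 0.29 in mouse, adjusted p = 0.00160).

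Among 7 EPH receptors, the tyrosine kinases that read ephrins, EPHA5 rose in mouse motor neurons. It went from 6.28 and 17.8 CPM to 37.8 and 307 CPM (log2 fold change 3.57 ± 0.92, adjusted p = 0.0272), and mouse other neurons held 96.1 and 324 CPM. In human EPHA5 (chr4:65319567-65670489 on GRCh38) had 0 UMIs in progenitors and 3 UMIs in motor neurons, so no fold is given. The mouse level was at least 131-fold higher in progenitors (adjusted p = 0.00306) and 516-fold higher in motor neurons (counting interval 176 to 2505, adjusted p = 0.00315). TUBB3 was likewise at 0 or low in the human files, as given above. The annotation used for counting is not given in the sources used here, so whether EPHA5 was uncounted or unexpressed in human, and with it what these folds measure, cannot be told apart.

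EPHB3 was higher in human, at 23.5 and 26.1 CPM against 5.78 and 4.96 CPM in progenitors (2.16 ± 0.39, adjusted p = 0.00235). In motor neurons it was at 37.4 and 35.9 CPM against 4.73 and 5.52 CPM (2.88 ± 0.43, adjusted p = 0.00131). Replicates of a species lay close together and the species far apart. EPHB2 was lower in human progenitors, at 14.2 and 19.1 CPM against 40.1 and 32.8 CPM (-1.20 ± 0.32, adjusted p = 0.0185). EPHA4, the receptor known for steering limb motor axons, passed in no comparison of classes or species. It was at 19.2 and 33.3 CPM in human progenitors and 20.04 and 41.0 CPM in motor neurons, and in mouse it went from 16.8 and 19.7 CPM to 34.0 and 47.8 CPM, which passed with the replicate block alone (0.92 ± 0.21, adjusted p = 0.00245).

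CXCR4, the CXCL12 receptor, was higher in motor neurons than in progenitors in each library part and varied widely between them. It was at 57.5 and 54.3 CPM in human progenitors and 495 and 157 CPM in motor neurons, and in mouse at 12.6 and 30.5 CPM and then 28.4 and 81.8 CPM. The changes did not pass across replicates (2.41 ± 0.86 in human, adjusted p = 0.0957, and 1.13 ± 0.83 in mouse, adjusted p = 0.386). Within library parts they did (replicate block: 2.07 ± 0.33, adjusted p = 2.35e-04, and 1.12 ± 0.36, adjusted p = 0.0193). Human motor neurons held 6.36-fold more CXCR4 than mouse motor neurons (2.67 ± 0.87, adjusted p = 0.0478). CXCR4, too, ranked just past the 30 genes set for description and is given as the partner of CXCL12. CXCL12 itself was at 5.13 and 10.7 CPM in human progenitors against 2.76 and 1.99 CPM in mouse (1.63 ± 0.43, adjusted p = 0.0159) and did not pass between motor neurons and progenitors.

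All 3 adhesion molecules rose in motor neurons of both species. CNTN2, also called TAG-1 (chr1:205042949-205078289 on GRCh38 and chr1:132509427-132543256 on mm10), went from 2.87 and 7.97 CPM to 166 and 313 CPM in human (log2 fold change 5.34 ± 0.57, adjusted p = 7.85e-04). Mouse levels went from 2.89 and 3.78 CPM to 252 and 338 CPM (6.21 ± 0.59, adjusted p = 2.80e-04). A CNTN2 UMI was seen in 47.0% to 67.5% of motor neurons and in 1.08% to 3.25% of progenitors at 5000 UMIs per cell, and in 0% to 2.17% of COL1A2-positive cells. L1CAM rose from 1.89 and 5.08 CPM to 84.2 and 159 CPM in human (4.998 ± 0.67, adjusted p = 0.00150) and from 0.754 and 0.455 CPM to 31.2 and 94.8 CPM in mouse (6.43 ± 0.73, adjusted p = 4.53e-04). Human progenitors exceeded mouse progenitors in L1CAM by 5.35-fold (2.42 ± 0.65, adjusted p = 0.0179).

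NCAM1 was already present in progenitors, at 49.4 and 76.7 CPM for human replicates and 44.4 and 49.4 CPM for mouse replicates. It rose to 282 and 383 CPM in human (2.25 ± 0.25, adjusted p = 8.23e-04) and to 652 and 949 CPM in mouse motor neurons (3.83 ± 0.27, adjusted p = 6.70e-05). Human motor neurons thus held 2.33-fold less NCAM1 than mouse motor neurons (-1.22 ± 0.24, adjusted p = 0.00539), with values that did not overlap. The species difference in change, -1.58 ± 0.34, had an adjusted p of 0.0853, and 3.75e-04 with the replicate block.

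**Figure D3:**
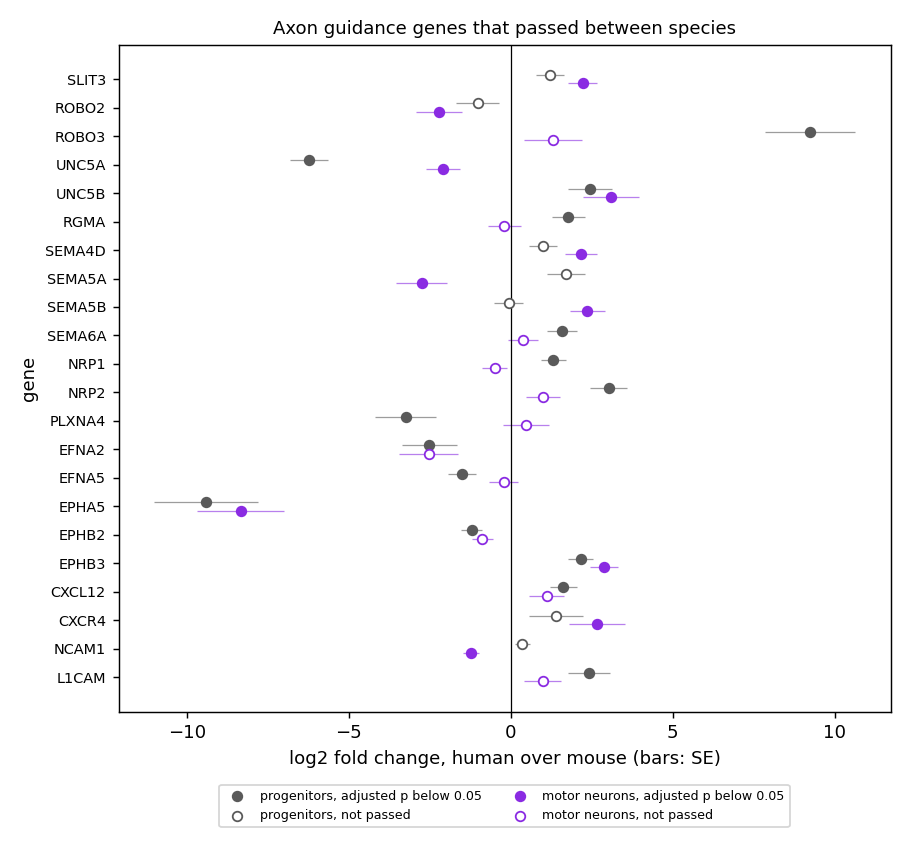
Log2 fold change of human over mouse (x axis; bars are standard errors of the fit) in progenitors (grey) and motor neurons (purple) for the genes that passed in at least 1 of these classes (y axis); filled points passed an adjusted p of 0.05. UNC5B and EPHB3 lie to the right and UNC5A and EPHA5 to the left in both classes, and the points of ROBO3 in progenitors and of EPHA5 rest on a group at or near 0 UMIs, so their size is no bound.

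Species comparisons called about the same share of guidance genes as of all genes. In motor neurons 11 of 48 passed, as given above, and in other neurons 10 of 48 passed (6 higher and 4 lower in human), while 22.8% of all genes did (13.1% higher and 9.71% lower). UNC5A, UNC5B, EPHA5 and EPHB3 passed in both progenitors and motor neurons and kept their direction. Classes of a library part share that library, so this is not independent support. Species, genome annotation, sampled days, depth and the share of unclassed cells differ together here and cannot be told apart. The change from progenitors to motor neurons differed between species for 0 of 48 genes by edgeR's quasi-likelihood test, 11 of them at an unadjusted p under 0.05, while 0.193% of all genes passed (0.0673% with the higher and 0.126% with the lower change in human). DESeq2 passed 4. With the replicate block 12 passed (14.9% of all genes): UNC5A, SEMA3C, SEMA5B and EFNA5 with the higher change in human, and SLIT2, ROBO3, SEMA5A, NRP1, NRP2, NCAM1, RGMA and RGMB with the higher change in mouse.

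In other neurons the guidance genes summed to 2238 and 2197 CPM for human replicates and 1626 and 2936 CPM for mouse replicates. The 2 neuron classes are parted by 1 UMI of ISL1 or MNX1 after thinning, so motor neurons whose UMIs were missed fall among other neurons. Between other neurons and motor neurons 0 of 48 genes passed edgeR's quasi-likelihood test in human and 0 in mouse, with 3 and 7 at an unadjusted p under 0.05. Over all genes 0.00841% passed in each species, so 0 of 48 does not show that the classes are alike. DESeq2 passed 0 guidance genes in human and 1 in mouse. SLIT2, SLIT3, NRP1 and CNTN2 passed with the replicate block in mouse, all lower in other neurons, while 0.732% of all genes did. SLIT2 was at 146 and 263 CPM there against 324 and 977 CPM in motor neurons (-1.61 ± 0.29, adjusted p = 0.0227). SLIT3 was at 22.4 and 17.6 CPM against 67.1 and 86.6 CPM (-2.09 ± 0.38, adjusted p = 0.0220). CNTN2 was at 108 and 102 CPM against 252 and 338 CPM (-1.57 ± 0.25, adjusted p = 0.0120). Mouse other neurons were also the class with the most interneuron marker transcripts. The 9 neural progenitor markers summed to 373 and 382 CPM there against 133 and 207 CPM in mouse motor neurons, and 7 detected pan-neuronal markers to 7209 and 8741 CPM against 8126 and 11174 CPM. The part of these markers in the differences was not tested.

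In human COL1A2-positive cells 3 genes rose and 2 fell against progenitors, while 2.94% of all genes passed (1.46% higher and 1.48% lower). CXCL12 was at 60.5 and 121 CPM against 5.13 and 10.7 CPM (log2 fold change 3.53 ± 0.45, adjusted p = 0.00436), SEMA5A at 38.8 and 50.2 CPM against 3.92 and 5.85 CPM (3.20 ± 0.61, adjusted p = 0.0203), and RGMB at 64.2 and 121 CPM against 19.5 and 31.9 CPM (1.84 ± 0.40, adjusted p = 0.0361). All 3 are ligands. RGMA fell to 16.4 and 30.2 CPM (-2.65 ± 0.54, adjusted p = 0.0274), and SEMA5B had 2 UMIs against 514 in progenitors, 37.9-fold lower with a counting interval of 10.4 to 314 (adjusted p = 0.00561). With either human replicate left out 0 of 48 passed, DESeq2 passed 11, and with the replicate block 20 passed (15 higher, 5 lower, 19.1% of all genes). Among the latter were SEMA3C, at 14.9 and 47.1 CPM, and CXCR4, which was lower at 9.70 and 4.12 CPM. The share of all genes that DESeq2 called is not given here, so its count alone does not set guidance genes apart. The 45 such cells of mouse replicate 2 held 53.7 CPM of CXCL12 and 79.0 CPM of SEMA5A, above the mouse progenitors, and had no replicate. Most genes called in human COL1A2-positive cells were not particular to them. RGMA also fell in human motor neurons, SEMA5B fell in mouse motor neurons, and SEMA5A and RGMB rose in mouse motor neurons. In human motor neurons SEMA5A was lower with the replicate block, and CXCL12 passed in motor neurons of neither species against progenitors.

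Motor neurons were divided by LHX3, a LIM homeobox factor that new motor neurons share and that medial column neurons keep. LHX3-positive cells held at least 1 UMI of it, and mouse replicate 1 gave no LHX3-positive sum, since it had under 20 such cells. Each log2 fold change is the mean of the human and mouse changes, and the mouse change rests on replicate 2 alone. Calls with the replicate block therefore do not measure how well a change repeats in mouse. Of 41 guidance genes tested, 0 passed edgeR's quasi-likelihood test (5 at an unadjusted p under 0.05; 0.0107% of all genes passed; DESeq2 also passed 0 guidance genes). With the replicate block 12 passed, while 5.07% of all genes did. ROBO3, SEMA3C, SEMA6A, NRP2, CNTN2 and CXCR4 were higher in LHX3-positive cells, and ROBO2, UNC5C, PLXNA4, EPHB1, EFNA5 and NEO1 were lower.

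Levels within the library parts show how even these differences were. PLXNA4 was at 0 and 2.05 CPM in human LHX3-positive against 10.4 and 33.8 CPM in LHX3-negative cells, and at 12.5 against 22.5 CPM in mouse replicate 2 (log2 fold change -2.47 with the replicate block). CXCR4 was at 822 and 226 CPM against 360 and 137 CPM in human and 90.6 against 74.8 CPM in mouse replicate 2 (0.68 with the replicate block). Both kept their direction in all 3 library parts. SEMA3C did not: it was lower in LHX3-positive cells of human, at 43.4 and 63.6 CPM against 86.9 and 75.4 CPM, and higher in mouse replicate 2, at 98.9 against 18.3 CPM. ROBO3 likewise rested on mouse replicate 2, with 16.6 against 2.10 CPM.

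**Figure D4:**
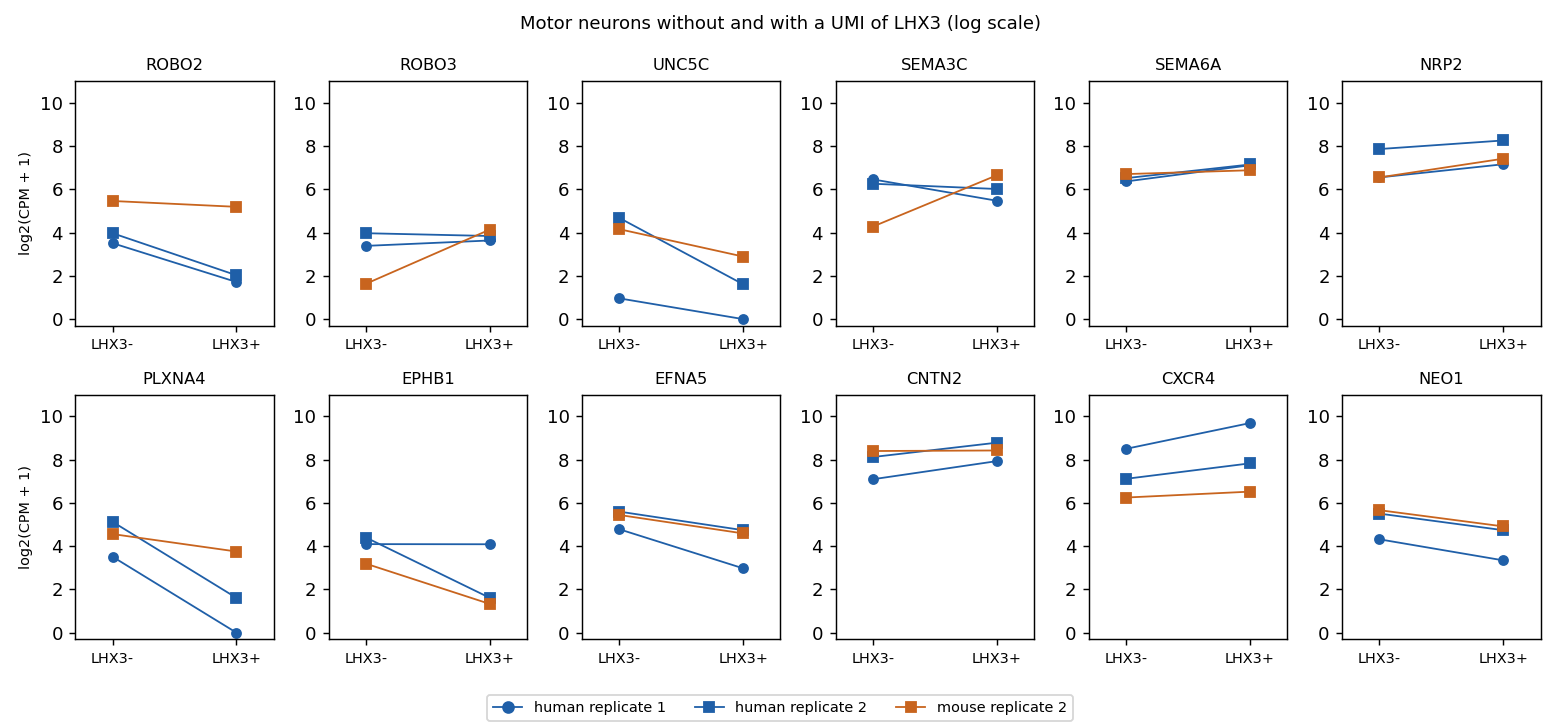
Levels, as log2 of CPM plus 1 (y axis, log scale), in motor neurons without and with a UMI of LHX3 (x axis), joined within each of 3 library parts, for the 12 genes that passed with the replicate block. Lines of PLXNA4, UNC5C, ROBO2, EFNA5 and NEO1 go down and those of NRP2, SEMA6A and CXCR4 go up in all 3 parts, while SEMA3C goes down in human and up in mouse replicate 2.

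A second division used NEFM, medium neurofilament, which accumulates as neurons mature. Since fewer than 20 motor neurons of each part lacked NEFM, cells above and below the median NEFM count of their library part were compared, a choice made after seeing the data. Of 40 guidance genes 0 passed edgeR's quasi-likelihood test (2 at an unadjusted p under 0.05; 0% of all genes passed; DESeq2 also passed 0 guidance genes). With the replicate block 9 passed (9.83% of all genes): SLIT2, SEMA3A, SEMA6D, NRP1, PLXNA4, NCAM1 and L1CAM were higher in NEFM-high cells, and ROBO2 and CXCR4 were lower. Neural progenitor markers had a median log2 fold change of -1.49 in the same division, with 0 of 9 past the threshold and 4 at an unadjusted p under 0.05. Their sum was 76.3 and 74.0 CPM in NEFM-high against 187 and 343 CPM in NEFM-low cells of mouse, while human gave 667 and 818 CPM against 568 and 901 CPM. Pan-neuronal markers summed to 7683 to 13482 CPM in NEFM-high and 3120 to 8806 CPM in NEFM-low cells. That list holds NEFM itself, so a higher sum follows in part from the division. Its median log2 fold change was 0.28, with 0 of 7 markers past the threshold. The part of either list in the guidance differences was not tested. SLIT2 was at 188 and 433 CPM in NEFM-high against 98.5 and 202 CPM in NEFM-low human cells, and at 390 and 1006 against 263 and 948 CPM in mouse (0.61 ± 0.09, adjusted p = 2.55e-05). The CXCR4 difference was not shared: NEFM-high cells held 615 and 173 CPM against 397 and 138 CPM in human, and 21.5 and 49.5 CPM against 34.8 and 115 CPM in mouse. ROBO2 was lower in all 4 parts, for instance 8.07 against 16.8 CPM in human replicate 2 and 32.7 against 46.8 CPM in mouse replicate 2.

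In single cells thinned to 5000 UMIs, a motor neuron held a median of 7 and 8 of the 48 genes in human and 5 and 8 in mouse. A progenitor held a median of 3 in each human part and 2 in each mouse part. The most in any motor neuron was 16. The mean share of cells with a UMI over the 48 genes was 15.5% in human and 14.4% in mouse motor neurons, against 6.27% and 5.73% in progenitors. CXCR4 was seen in 58.4% (exact 95% interval 50.5 to 66.0) and 37.1% (31.5 to 42.9) of human and 6.49% (2.14 to 14.5) and 25.7% (20.4 to 31.6) of mouse motor neurons. EPHA5 was seen in 11.7% (5.49 to 21.0) and 43.4% (37.1 to 49.8) of mouse motor neurons, and its absence from the 166 motor neurons of human replicate 1 allows up to 1.81%. These intervals and limits cover counting error only.

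Guidance genes outside the list were counted in the same way. Of 56 further ligands and receptors 43 passed the filter, and 10 rose and 3 fell in human and 17 rose and 2 fell in mouse motor neurons. That is 30.2% and 44.2% of those tested, against 12.6% and 19.8% of all genes. Their median log2 fold change was 1.32 in human and 1.77 in mouse. The extremes in human were RET, the GDNF receptor kinase (6.49), and CNTN1, a contactin (6.34), against EPHB4 (-3.49) and EFNA4 (-3.29), an EPH receptor and an ephrin. In mouse they were CNTN1 (5.41) and SEMA3D (4.80) against EPHB4 (-4.34) and LRIG1 (-2.60). Of 40 downstream effectors 39 were tested, and 4 rose in human and 5 in mouse with none falling. The called share, 10.3% and 12.8%, was below that of all genes in either species, while higher calls alone made up 5.9% and 10.3% of all genes. PAK3, a protein kinase that acts on the cytoskeleton, led them with 4.27 in human and 3.35 in mouse, followed by MICAL1 (1.87) in human and MICAL2 (3.13) in mouse, oxidases that act on actin.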

How the data were processed

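The authors deposited raw UMI counts per gene and cell for 4 library parts; the submitters' processing notes name Cell Ranger 3.1.0 and the builds hg38 and mm10. The gene annotations are not given in the sources used here, and the tables of a species list different numbers of genes. A cell was kept with 1000 or more UMIs, 500 or more genes and mitochondrial UMIs not above 10%, which removed 15 and 215 human and 5 and 77 mouse cells (replicates 1 and 2). Scrublet (scanpy 1.11.5, expected rate 5%) removed 13, 24, 5 and 32 doublets, and 60 barcodes found in both species parts of the mixed library were left out of both. Each cell was thinned to 5000 UMIs for gating, leaving out 164 and 135 human and 17 and 109 mouse cells as too shallow.

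Raw counts of all UMIs of gated cells were summed per library part and class (at least 20 cells) over 15472 shared symbols, and CPM were computed from these sums. The 15 sums entered 1 edgeR 4.0.16 quasi-likelihood fit (R 4.3.3, TMM, default filter on low counts), with Benjamini-Hochberg adjustment over 11893 genes and a threshold of 0.05. Standard errors were derived from the F statistic. Motor neuron subdivisions had fits of their own. On simulated counts of 9197 genes with 200 changed, 4-fold changes were recovered in 100% of cases and 2-fold changes in 31% (human) and 32% (mouse) for motor neurons against progenitors. The simulation gave every gene the same spread, left out genes of low count and held no difference between library parts or lines. Its rates therefore do not carry over to the deposited counts, where larger changes can fail to pass. DESeq2 1.42.0 and other gates, depths and fits were alternatives. Classes of a library part share that library, and their deviations from the class mean correlated at 0.60 to 0.83, so the fit with library part as a replicate block is given where it changes a call; between species that block was the replicate number, which marks a shared library for replicate 1 alone. Shares have exact Clopper-Pearson intervals at 95%, and a count of 0 allows 3 counts. The genes and lists were chosen with earlier results of these data known. Genes described in full passed between motor neurons and progenitors or between species in progenitors or motor neurons, up to 30 by smallest adjusted p. Coordinates are gene spans from RefSeq (GRCh38) and GENCODE (mm10).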

Additional observations from a re-analysis of the deposited data

Results flagged for a closer look

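For 6 of 48 guidance genes the change from progenitors to motor neurons went one way in both human library parts and the other way in both mouse library parts; 11.2% of all 11893 genes tested did the same. Differences are human minus mouse on the log2 scale from edgeR's quasi-likelihood fit, and none passed the Benjamini-Hochberg adjustment. UNC5A, a netrin receptor, had a difference of 4.14, higher in human motor neurons and lower in mouse ones. SEMA5A, a transmembrane semaphorin, had a difference of -4.45 in the opposite sense. The plexins PLXNA2 and PLXNB1 had differences of -0.52 and -0.79. CXCL12, the CXCR4 ligand, had a difference of -0.52, and NEO1, the receptor for RGM proteins, of 0.41. Within library parts human PLXNA2, human NEO1 and mouse CXCL12 hardly changed, by -0.06 to 0.16 as log2 of CPM plus 1. For these genes the opposite sign therefore rests on a change close to 0 in that species. With the replicate block UNC5A (adjusted p = 0.00246) and SEMA5A (adjusted p = 8.32e-04) passed and the other 4 did not.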

How the results depend on the processing

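The number of guidance genes past the threshold rested most on the replicate block and on both replicates being present. With the replicate block it was 29 for motor neurons against progenitors in human and 31 in mouse, 12 for the species difference of that change, 4 for mouse other neurons against motor neurons, 20 for human COL1A2-positive cells against progenitors, 19 and 18 for human against mouse in motor neurons and other neurons, 12 for the LHX3 and 9 for the NEFM division. The block counts for human against mouse in progenitors (22) and for human other neurons (0) stayed within 1.5 times. Between species the labels pair replicate 1 alone, as 1 mixed library, and the second replicates share only a number (correlation of deviations 0.28 to 0.33), so these block counts rest on an unsupported pairing; the same fit called 47.4%, 38.2% and 37.6% of all genes in progenitors, motor neurons and other neurons. Leaving out 1 replicate at a time gave 0 to 19 genes for motor neurons against progenitors in human and 8 to 15 in mouse, 0 to 7 for COL1A2-positive cells, 7 to 10, 4 to 9 and 3 to 7 for human against mouse in progenitors, motor neurons and other neurons, and 0 for the comparisons that had 0. Leaving out mouse replicates 1 and 2 in turn, the mouse motor neuron change of ROBO3 ranged from 0.00 to 8.76 and that of UNC5D from -3.86 to 4.45, the lower values being without replicate 2, where the LHX3 division could not be fitted. Where a group was left with 1 sum, its spread was assumed to equal that of the other groups. DESeq2 gave 4 genes for the species difference, 1 for mouse other neurons against motor neurons and 11 for COL1A2-positive cells. The shares of all genes under DESeq2 are not given beside these counts. Fitting only the classes compared gave 5 and 6 genes for human against mouse in motor neurons and other neurons. DESeq2 size factors, no filter on low counts, a gate at 1 UMI, a gate without thinning and thinning to 7000 UMIs kept all 11 counts within 1.5 times. With all UMIs of the files as denominator the summed level was 557 CPM in mouse progenitors, 2021 CPM in human other neurons and 954 CPM in mouse COL1A2-positive cells. At 7000 UMIs the mean share of cells with a UMI was 8.38% in human progenitors, 7.54% in mouse progenitors and 18.4% in human motor neurons, so shares are rates of detection at a depth. Of 78 single calls, the gate at 1 UMI ended 10, the gate without thinning 4, thinning to 7000 UMIs 8 and no filter on low counts 1, and the block or DESeq2 ended 0. Fitting only the classes compared ended 19, leaving out human replicate 1 or 2 ended 50 each, and leaving out mouse replicate 1 or 2 ended 26 and 29, with 2 more that reversed or went to 0 without mouse replicate 2. A division of motor neurons by presence of NEFM could not be fitted with the reported gate and, with a gate at 1 UMI, called 0 of 38 guidance genes and 4 of 8674 genes.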
